A study of Mus musculus with 12 samples.

Results

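The response of follicular (FO) B cells to IFNα alone was examined by comparing 3 samples stimulated with IFNα (0.1 μg/mL, 12 h) with 3 unstimulated samples. These are 6 of the 12 samples of the series, taken by their treatment labels. The other samples received CpG or CpG plus IFNα. In all groups the cells were B220hi AA4.1- CD23+ CD21mid FO B cells, sorted from the spleens of C57BL6 mice (10 weeks of age by the design description of the series) with no genetic change named. RNA was measured by bulk RNA barcoding (BRB) sequencing, which counts unique molecular identifiers (UMIs) at the 3′ end of each transcript, so that a count does not grow with the length of the transcript. Of the 22561 genes in the count table, 9431 had enough counts to be tested. The labels do not say whether the unstimulated cells were also kept in culture for 12 h, and neither do the methods, so the effects of IFNα and of time in culture cannot be told apart in this comparison.

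IFNα is a type I interferon. It binds a receptor made of IFNAR1 and IFNAR2, whose kinases JAK1 and TYK2 phosphorylate STAT proteins. STAT2 and IRF9 then form part of a transcription factor complex that binds the interferon-stimulated response element (ISRE) of interferon-stimulated genes, many of which encode sensors of viral nucleic acid, enzymes that block viral replication, and parts of the antigen presentation machinery. FO B cells are the recirculating mature B cells of spleen and lymph node. They carry CD23 (Fcer2a) and CD21 (Cr2) and respond to antigen and to ligands of Toll-like receptors (TLRs).

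The 6 libraries held between 922450 and 1689570 UMI counts, which puts 3 counts, taken here as the limit of detection, at 1.82 to 3.21 CPM (counts relative to each library's total multiplied by its TMM scaling factor). Replicates differed by more than counting noise, and IFNα replicate 2 stood apart. Its chi-square per degree of freedom against the other IFNα samples was 4.5 and 6.0, compared with 1.9 to 2.2 for the other pairs of replicates, and a ribosomal RNA gene (CT010467.1) took 3.14% of its counts against 0.771% to 1.81% in the other 5 libraries. The B cell genes Cd79a, Cd79b and Ms4a1 were present in every sample and did not pass the test for a difference between the groups, whereas Cd22, an inhibitory receptor of B cells, fell by 0.36 on the log2 scale (adjusted p = 0.037). Markers of T cells summed to at most 3.64 CPM in any sample, and the 2 markers of NK cells in the table were at 0 in all 6. The 6 myeloid markers in the table (Lyz2, Itgam, Csf1r, Cd14, S100a8 and Csf3r) summed to 8.19, 22.5 and 4.41 CPM in unstimulated cells and were at 0 in all 3 IFNα samples. Markers of erythroid cells summed to 57.4 to 345 CPM without and 15.3 to 336 CPM with IFNα.

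The sequence to which the complex of STAT2 and IRF9 binds could be found in the promoters of several of the genes that rose most. The ISRE was searched as GAAANNGAAA on both strands in promoter windows of RefSeq (GRCm38.p6), which run from 250 bases before to 50 bases after the start of a transcript. The windows below are shown because their genes are among the most strongly up-regulated genes or encode the signaling factor itself. Each is read 5′ to 3′ on the strand that carries the motif, with the match in capitals.
Isg15 (chr4:156200871-156200900, minus strand): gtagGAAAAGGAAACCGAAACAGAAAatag
Ifit3, distal (chr19:34583363-34583392, minus strand): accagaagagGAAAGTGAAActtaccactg
Ifit3, proximal (chr19:34583397-34583426, minus strand): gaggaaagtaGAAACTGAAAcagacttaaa
Rsad2 (chr12:26456553-26456582, plus strand): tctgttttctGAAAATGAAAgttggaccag
Gm12250 (chr11:58183787-58183816, minus strand): ccaagaacatGAAACTGAAAgcagatttct
Slfn5 (chr11:82951937-82951966, plus strand): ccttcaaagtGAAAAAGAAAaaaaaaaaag
Stat2 (chr10:128270266-128270295, minus strand): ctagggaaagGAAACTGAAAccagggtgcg
In Isg15 3 overlapping matches formed a run between bases -78 and -57 from the start, and in Ifit3 the matches lay at -156 and -122. Ifit3b, a near copy of Ifit3 on the same chromosome, held the same 2 windows of 30 bases letter for letter. The whole Ifit3 window (chr19:34583279-34583578, plus strand, matches in capitals) shows both elements as they stand on the strand of the gene, where the match reads as its reverse complement:
Ifit3: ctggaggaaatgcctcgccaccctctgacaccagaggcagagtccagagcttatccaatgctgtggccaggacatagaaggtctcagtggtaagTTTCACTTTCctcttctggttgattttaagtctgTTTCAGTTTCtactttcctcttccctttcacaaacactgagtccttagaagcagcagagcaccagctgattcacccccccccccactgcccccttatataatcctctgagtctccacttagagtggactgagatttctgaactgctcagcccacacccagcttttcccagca
No match was found in the windows of Irf7, Oasl1, Oasl2, Ifit2, Slfn1, Gm5431, Irf9 or Tlr9, which says only that these letters are absent from the windows searched.

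IFNα gave 430 up-regulated and 384 down-regulated differentially expressed genes (DEGs; edgeR, with an adjusted p below 0.1 and a change of more than 2-fold), which are 4.56% and 4.07% of the genes tested. In what follows, a gene is said to rise or fall where its adjusted p was under 0.1, and to be up- or down-regulated where it also passed the 2-fold limit. Over all genes tested 12.4% rose and 11.9% fell, and the counts in the gene lists below are to be set against these shares. Of the up-regulated genes 161 changed by more than 2 on the log2 scale and 42 by more than 4, and of the down-regulated genes 90 and 13 did. The median up-regulated gene had 14.6 CPM in unstimulated cells and 60.7 CPM with IFNα, whereas the median down-regulated gene had 26.7 and 8.56 CPM. Without IFNα replicate 2 the numbers were 421 and 510, and the ribosomal RNA genes CT010467.1 and mt-Rnr1, chosen after their values were seen, were no longer DEGs (log2 fold changes of 0.90 and 0.92, in place of 1.37 and 1.54). Ranked by p-value among genes whose samples did not overlap, the first 10 up-regulated genes were Ifit3, Slfn5, Irf7, Oasl1, Rsad2, Ifit3b, Oasl2, Rtp4, Ifit2 and Slfn1. The largest fitted changes among genes with a mean of at least 20 CPM over the 6 samples were those of Slfn1, Ifit3, Gm12250, Gm5431 and Ifit2. Gm12250 and Gm5431 were at the limit of detection in unstimulated cells and reached that mean only through the IFNα samples. Their place in this order is set by the fit, and their lower bounds are 41.0-fold and 18.0-fold, below the 71.1-fold of Ifit2. The 10 down-regulated genes chosen in the same way were Fos, Fosb, Junb, Ppp1r15a, Dusp1, Jun, Sik1, Klf4, Rgs2 and Rhob, with Rgs1 added by the size of its change. The down-regulated genes also included Tyrobp, Cfp and Clec12a, which myeloid cells express and which were chosen after their values were seen (log2 fold changes of -2.51 and -3.68, the latter -4.27 without IFNα replicate 2, and at least 5.27-fold lower for Clec12a). The summed myeloid markers, too few in counts to be tested, were lower in the same samples, as given above, and their part in the result was not tested. The median log2 fold change over all genes tested was -0.0012.

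**Figure D1:**
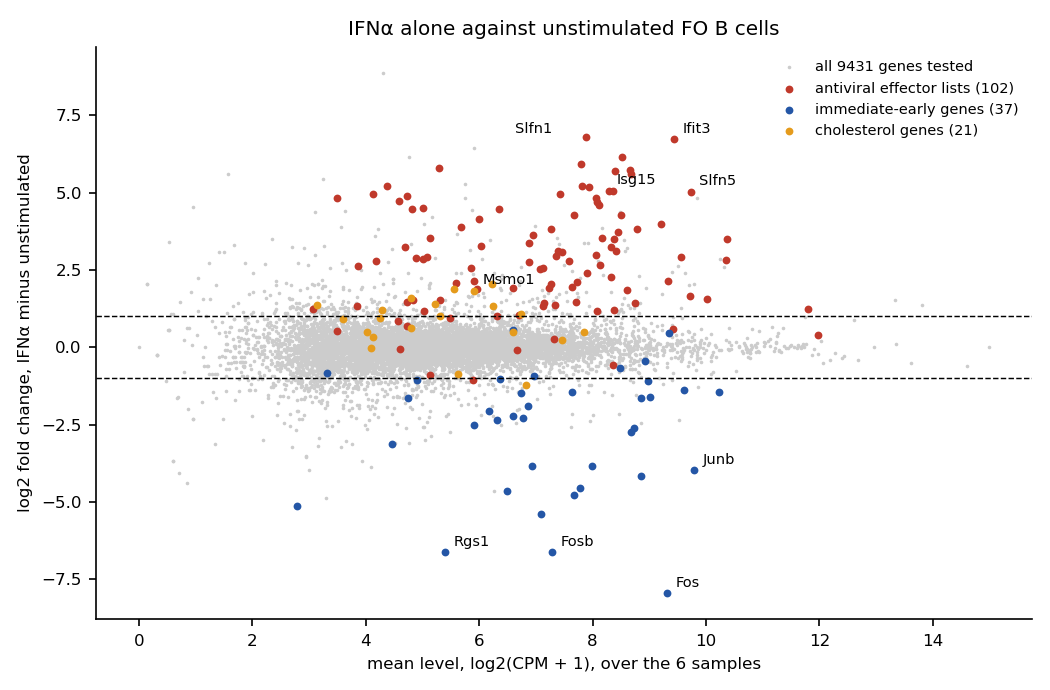
Log2 fold change of each of the 9431 genes tested (vertical axis, IFNα minus unstimulated) against its mean level over the 6 samples, as log2(CPM + 1). Colored points are members of the 6 antiviral effector lists (red), of the immediate-early list (blue) and of the cholesterol list (orange), and dashed lines mark a 2-fold change. Of the 102 antiviral genes 90 lie above the upper line as up-regulated DEGs, and 31 of the 37 immediate-early genes below the lower line as down-regulated DEGs.

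The subunits of the receptor itself did not pass the test with all samples included. Ifnar1 had 81.0, 51.3 and 60.9 CPM in unstimulated cells and 43.4, 88.8 and 46.6 CPM with IFNα, and Ifnar2 had 26.4, 25.7 and 23.8 against 24.2, 24.9 and 29.0. For both, the groups overlapped, and the log2 fold changes of -0.072 (standard error 0.20, adjusted p = 0.859) and 0.047 (standard error 0.22, adjusted p = 0.917) did not pass the test. Without IFNα replicate 2, the highest sample for Ifnar1, the log2 fold change of Ifnar1 was -0.52 (adjusted p = 0.0649). Of the kinases, Jak1 rose by 0.35 and Tyk2 fell by 0.54 on the log2 scale (adjusted p = 0.0286 and 0.0341). The transcription factor genes Stat2 and Irf9 moved more than these kinases. Stat2 rose from 63.7, 59.9 and 84.7 to 411, 550.3 and 472 CPM, 6.86-fold (log2 fold change 2.78, standard error 0.14, adjusted p = 1.86e-17). Irf9 rose from 90.1, 75.9 and 82.9 to 271, 303 and 284 CPM, 3.44-fold (log2 fold change 1.78, standard error 0.13, adjusted p = 7.05e-13). In both genes every IFNα sample lay above every unstimulated sample.

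Genes that restrain interferon signaling were divided. Usp18, which encodes a protease that removes ISG15 and blocks the receptor at IFNAR2, rose from 20.9, 8.56 and 23.8 to 536, 445 and 565 CPM (log2 fold change 4.81, standard error 0.20, adjusted p = 1.52e-19). Socs1, an inhibitor of JAK kinases, was also up-regulated, from 12.7 ± 6.63 (SD, n = 3) to 55.4 ± 4.22 (SD, n = 3) CPM (log2 fold change 2.09). Its relative Socs3 went the other way, from 44.6, 28.9 and 17.6 CPM to 0, 3.04 and 2.29 CPM (log2 fold change -3.86, and -4.46 without IFNα replicate 2, standard error 0.47, adjusted p = 6.53e-08), and the phosphatase gene Ptpn6 fell by 0.53 on the log2 scale. Pias1 rose by 0.37. Transcripts of the type I interferon genes themselves were at or near 0: the table holds 2 of the 20 listed genes, and none of the 6 samples had more than 1 count in either.

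Among the interferon regulatory factors, Irf7 led. This factor, which drives transcription of interferon genes in other cells, rose from 60.1, 49.2 and 75.0 to 1937, 1559.7 and 1790.3 CPM (log2 fold change 4.83, standard error 0.15, adjusted p = 2.15e-22), and Irf9 was the only other member of the 7 tested that was up-regulated. Irf1 and Irf2 rose by 0.76 and 0.66 on the log2 scale (adjusted p = 0.00029 and 0.000604). Irf8, which is needed for the identity of B cells and of dendritic cells, fell by 0.51 (adjusted p = 0.00066).

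Sensors of viral RNA rose together. Of the 13 genes of the RNA sensing list that were tested, 11 were up-regulated, and the list's median log2 fold change was 2.41, against -0.0012 over all genes. Ifih1, which encodes the sensor MDA5, had 5.46, 2.14 and 0 CPM in unstimulated cells and 123, 77.8 and 109.9 CPM with IFNα, so that it moved from near the limit of detection to a clear signal. Ddx58, which encodes RIG-I, was already present and rose from 81.0, 99.5 and 106 to 468, 466 and 514 CPM (log2 fold change 2.34, standard error 0.13, adjusted p = 6.36e-16). Dhx58, their relative LGP2, rose by 3.35, Eif2ak2 (the kinase PKR) by 3.53 and Zbp1, a sensor of Z-form nucleic acid, by 3.87 on the log2 scale. Zc3hav1, the zinc finger antiviral protein, rose by 0.95, short of the 2-fold limit, and 1 member did not pass the test.

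Of 14 tested genes of DNA sensing, 12 were up-regulated, with a median log2 fold change of 2.92 (2.56 when members without a measurable level in unstimulated cells enter at their lower bound). Most belong to the PYHIN family, whose members bind DNA in the nucleus or cytosol and lie in a cluster on chromosome 1. Ifi213 rose from 68.2, 52.4 and 63.5 to 659, 703 and 709 CPM (log2 fold change 3.48) and Ifi203 from 318, 295 and 373 to 1347, 1300.0 and 1328 CPM (log2 fold change 2.01). Ifi207 had no count in the 3 unstimulated samples and 33.3, 24.9 and 54.2 CPM with IFNα, at least 13.1-fold higher when unstimulated cells are set to 3 counts per library. Cgas, the enzyme that turns cytosolic DNA into the second messenger cGAMP, rose from 3.64, 4.28 and 4.41 to 28.3, 23.1 and 20.6 CPM (log2 fold change 2.51, adjusted p = 3.18e-06). Its partner Sting1 had 68.2, 103 and 81.2 against 113, 95.5 and 114 CPM (log2 fold change 0.35, adjusted p = 0.113) and did not pass the test, so that the enzyme rose while the adaptor was not shown to. PYHIN genes are similar in sequence, and the counting could have divided their reads.

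Many of the genes that rose most encode antiviral effectors. The IFIT proteins bind viral RNA and stop its translation, and IFITM proteins block the entry of viruses at membranes. All 6 tested members of these families were up-regulated, with a median log2 fold change of 5.84. Ifit3 had 11.8, 7.49 and 18.5 CPM in unstimulated cells and 1469, 1243 and 1416 CPM with IFNα, 106-fold higher. Ifit2 went from 10.9, 5.35 and 13.2 to 885, 545 and 748 CPM (log2 fold change 6.15, standard error 0.22, adjusted p = 3.66e-21), and Ifit1 from 10.9, 12.8 and 32.6 to 733, 527 and 656 CPM (log2 fold change 5.05, and 5.72 without unstimulated replicate 3). Ifitm3 rose from 9.10, 12.8 and 22.1 to 896, 567 and 921 CPM (log2 fold change 5.73). In each of these genes the lowest IFNα sample was replicate 2, and it still lay far above all unstimulated samples. The other 4 IFIT and IFITM genes in the table had too few counts to be tested, and members of these families share sequence, so that reads could have been divided among them.

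**Figure D2:**
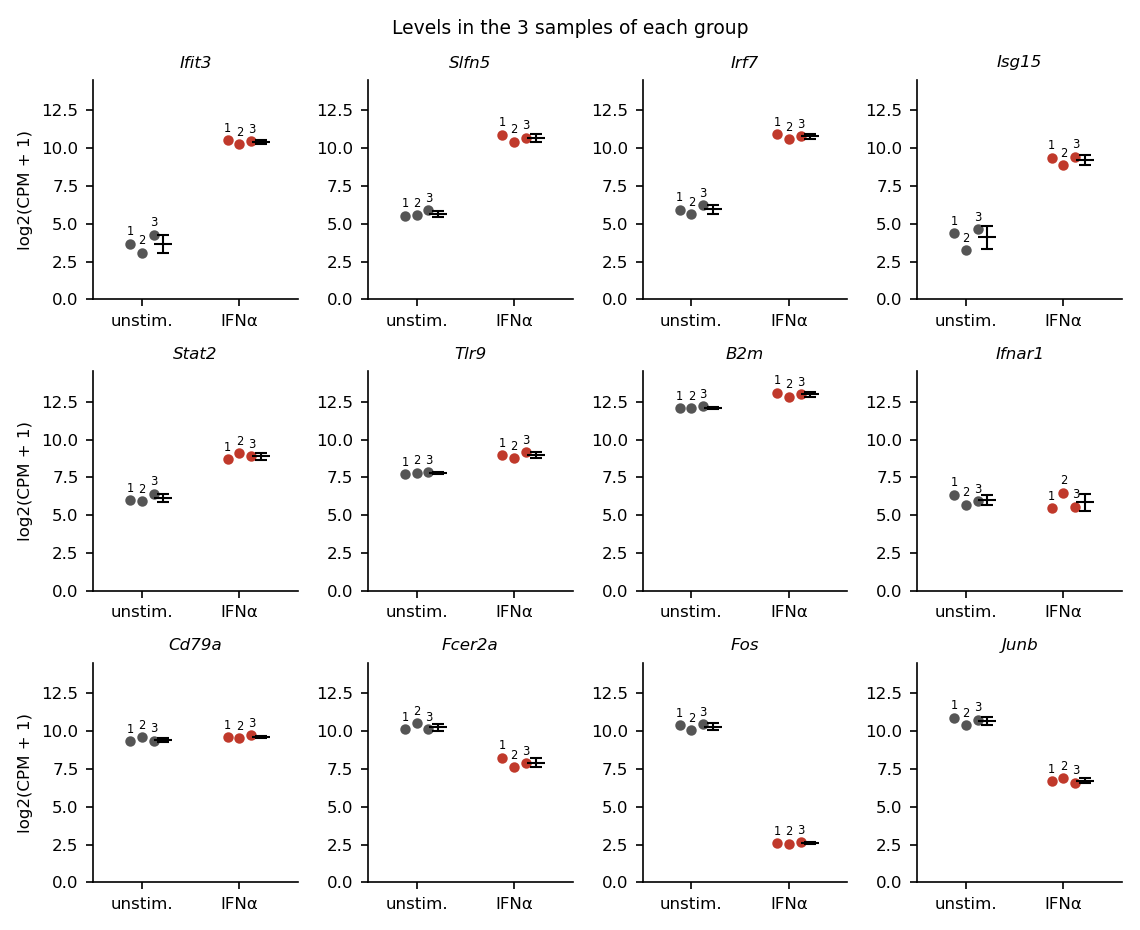
Level of 12 genes in each sample as log2(CPM + 1), with the replicate number above each point and, to the right of each group, its mean with the SD of the 3 samples. The interferon-stimulated genes of the first row, with Stat2, Tlr9 and B2m, were higher in all 3 IFNα samples, Ifnar1 and Cd79a overlapped between the groups, and Fcer2a, Fos and Junb were lower in all 3 IFNα samples.

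The OAS enzymes sense double-stranded RNA and make 2′-5′-linked oligoadenylates, which lead to the cleavage of RNA. All 8 tested genes of this pathway were up-regulated (median log2 fold change 4.37). Oasl2 rose from 11.8, 11.8 and 15.0 to 501, 441 and 475 CPM (log2 fold change 5.18, standard error 0.18, adjusted p = 1.2e-21) and Oasl1 from 27.3, 34.2 and 44.1 to 701, 655 and 702 CPM (log2 fold change 4.28, standard error 0.14, adjusted p = 9.32e-22). The 5 OAS genes that lie side by side on chromosome 5 (Oas2, Oas3, Oas1c, Oas1b and Oas1a) were all up-regulated.

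ISG15 is a ubiquitin-like protein that is attached to other proteins by a cascade of enzymes, and all 7 members of this pathway were up-regulated (median log2 fold change 3.25). Isg15 itself rose from 20.02, 8.56 and 23.8 to 661, 462 and 687 CPM (log2 fold change 5.06, standard error 0.20, adjusted p = 4.92e-20). The activating enzyme Uba7 rose from 53.7, 72.7 and 76.8 to 111, 161 and 145 CPM, just over the 2-fold limit, and fell below it when IFNα replicate 2 or unstimulated replicate 1 was left out (log2 fold changes of 0.94 and 0.91, in place of 1.05). The conjugating enzyme Ube2l6 rose by 3.25 and the ligase Herc6 by 3.63 on the log2 scale.

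Large interferon-induced GTPases act on the membranes around intracellular pathogens. Of 19 genes of the GBP, IRG and MX families 18 were up-regulated and the remaining gene, Gbp5, rose by 0.85 on the log2 scale (adjusted p = 0.0164). Members near 0 without IFNα, such as Tgtp1 and Iigp1, entered the test only through the samples with IFNα. The share of up-regulated members, here and in other lists with such genes, is thus partly set by the filter. Mx1 rose from 6.37, 10.7 and 15.0 to 294, 387 and 315 CPM (log2 fold change 4.95). Irgm1, a regulator of the family, rose from 50.05, 24.6 and 57.4 to 663, 396 and 516 CPM (log2 fold change 3.54), and Gm12250, another gene of the IRG family, from 2 counts or fewer in each unstimulated library to 141, 95.5 and 115 CPM, at least 41.0-fold higher. Tgtp1 was near 0 without IFNα (0.910, 0 and 1.76 CPM) and had 41.4, 21.9 and 33.6 CPM with it, at least 11.3-fold higher. Mouse Tgtp1 and Tgtp2 are near-identical copies, and their reads could have been divided.

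Of 38 restriction factors and other effectors of several kinds, 33 were up-regulated and 1, Ifi27, was down-regulated (median log2 fold change 2.22). Rsad2, which encodes viperin, an enzyme that makes a chain-terminating nucleotide, rose from 20.02, 13.9 and 24.7 to 531, 486 and 548 CPM (log2 fold change 4.71, standard error 0.16, adjusted p = 9.32e-22). Its neighbor Cmpk2 rose by 3.83 on the log2 scale. Bst2, or tetherin, which holds virus particles at the cell surface, rose from 64.6, 66.3 and 76.8 to 1242, 898 and 1174 CPM (log2 fold change 3.99), and Isg20, a nuclease, from 46.4, 44.9 and 53.8 to 692, 595 and 662 CPM (log2 fold change 3.74). Rtp4 rose by 4.601 and Ifi27l2a by 3.49, the latter to 2638, 2163 and 2461 CPM. Other members of the list did not follow. Ly6e, which was already at 3381, 3638 and 3460.0 CPM, rose by 0.39 on the log2 scale, and Ifi27 fell from 71.0, 92.0 and 75.9 to 26.2, 54.7 and 29.0 CPM (log2 fold change -1.05), a change that stayed under 2-fold when IFNα replicate 1, IFNα replicate 3 or unstimulated replicate 2 was left out (log2 fold changes of -0.88, -0.88 and -0.93).

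In the families of Schlafen, PARP and TRIM genes 19 of 25 tested members were up-regulated (median log2 fold change 2.14). Slfn1, a Schlafen gene associated with quiescence of lymphocytes, had 2.73, 3.21 and 6.18 CPM in unstimulated cells and 554, 367 and 480.0 CPM with IFNα, 111-fold higher. Slfn5 rose from 45.5, 46.0 and 58.2 to 1904, 1372 and 1658 CPM (log2 fold change 5.03, standard error 0.15, adjusted p = 8.81e-23). Parp14, an ADP-ribosyltransferase, rose by 2.80 and Trim30a by 2.91 on the log2 scale, whereas Trim5 fell by 0.89 (adjusted p = 0.00547), with 39.1, 57.8 and 37.9 CPM without and 24.2, 29.8 and 16.8 CPM with IFNα. Trim5 passed the 2-fold limit when IFNα replicate 2 or unstimulated replicate 3 was left out (log2 fold changes of -1.14 and -1.04). These families have clusters of similar genes whose reads could have been divided.

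**Figure D3:**
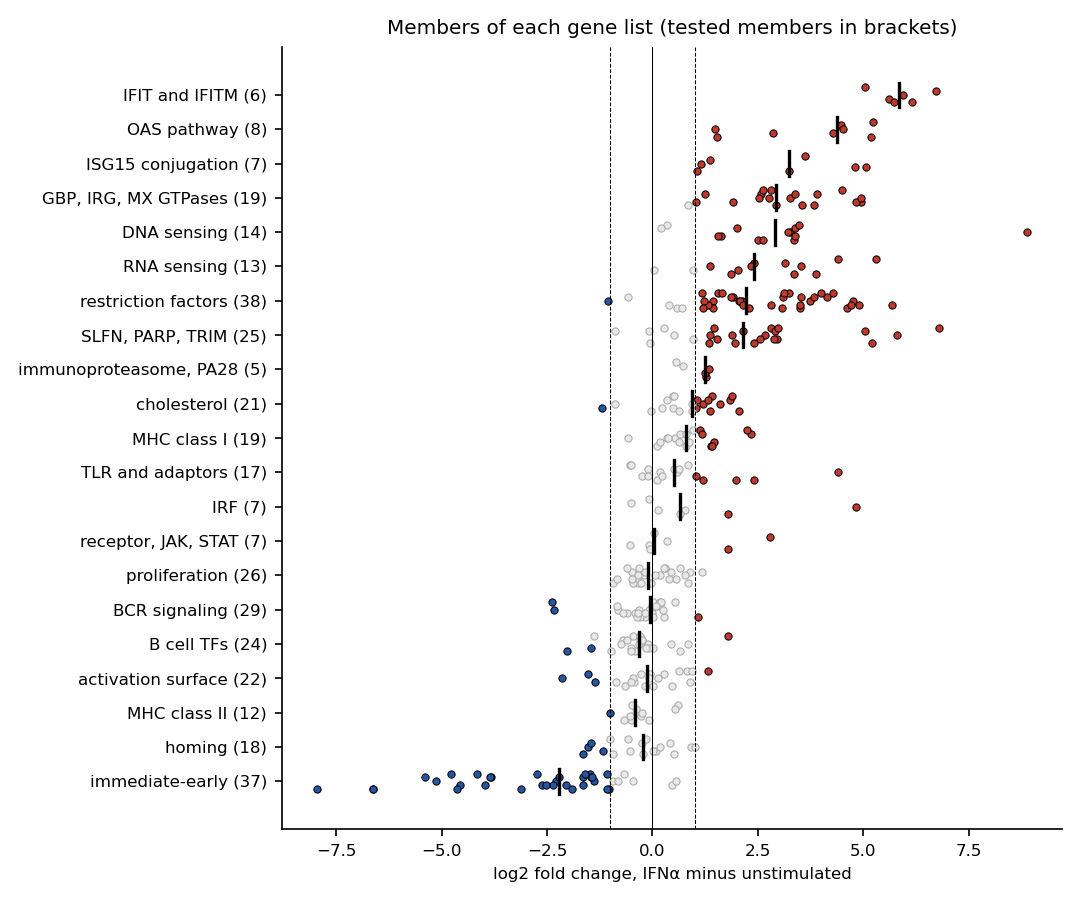
Log2 fold change (IFNα minus unstimulated) of every tested member of 21 gene lists, with up-regulated DEGs in red, down-regulated DEGs in blue and other genes in gray, the median of each list as a black bar, and dashed lines at a 2-fold change. The antiviral and nucleic acid sensing lists lie to the right, with medians of 2.14 to 5.84, and the immediate-early list lies to the left, with a median of -2.23. The point at 8.87 is Ifi207, which had no count in unstimulated cells, so that its position depends on the prior count of the fit.

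Antigen presentation by MHC class I rose broadly, but by smaller amounts. Of 19 genes tested, 14 rose and 1, the chaperone gene Calr, fell (log2 fold change -0.58), against 12.4% of all genes that rose and 11.9% that fell. Of the 14, 7 were up-regulated. B2m, which encodes the light chain of all class I molecules, rose from 4353, 4315 and 4689 to 8853, 7302 and 8229.6 CPM, 1.83-fold (log2 fold change 0.87, standard error 0.11, adjusted p = 2.37e-07). H2-K1, a classical heavy chain, rose from 2096, 2329 and 2512 to 4533, 4165 and 4849 CPM (log2 fold change 0.97, standard error 0.11, adjusted p = 2.37e-08). Neither gene overlapped between the groups, and H2-K1 passed the 2-fold limit without IFNα replicate 2 (log2 fold change 1.03) or unstimulated replicate 3 (1.001). The nonclassical genes H2-T22 and H2-T24 changed more, by 2.25 and 2.33 on the log2 scale, as did Tap1 (1.38), a subunit of the peptide transporter, and Nlrc5 (1.45), the transactivator of class I genes. Class I heavy chains are a multigene family, and their values depend on how reads were assigned.

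The proteasome subunits that interferons exchange also rose. All 5 genes of the immunoproteasome and its PA28 activator rose, 3 of them as DEGs (Psmb9, Psme1 and Psme2). Psmb9 rose from 123, 157 and 132 to 379, 313 and 356 CPM (log2 fold change 1.35), Psmb8 by 0.72 and Psmb10 by 0.57. Of the 3 catalytic subunits that they replace, none was a DEG, and Psmb5 and Psmb6 rose by 0.71 and 0.37 on the log2 scale.

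MHC class II went the other way. Of 12 genes 8 fell and 2 rose, and 1 was a DEG. Cd74, the invariant chain and one of the most abundant transcripts of these cells, fell from 15727, 14538 and 13577 to 11936, 8941 and 10246 CPM (log2 fold change -0.49, standard error 0.13, adjusted p = 0.00763), and H2-Ab1 fell from 5154, 5147 and 4709 to 3945, 3074 and 3526 CPM (log2 fold change -0.51, standard error 0.12, adjusted p = 0.00139). H2-DMb1, part of the complex that loads peptides, was at the 2-fold limit, from 264, 246 and 247 to 109, 139 and 127 CPM, and was not a DEG without IFNα replicate 1, IFNα replicate 3 or unstimulated replicate 1. The 2 genes that rose were H2-Eb2 (0.52) and the protease gene Ctss (0.60). The log2 fold changes of the list ran from -1.001 to 0.60.

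Among the TLR genes, 3 that encode sensors of nucleic acid were up-regulated. Tlr7, which senses single-stranded RNA, rose from 27.3, 17.1 and 26.5 to 124, 105 and 156 CPM (log2 fold change 2.41, standard error 0.19, adjusted p = 3.07e-12). Tlr9, the receptor of CpG, rose from 209, 226 and 226 to 497, 441 and 578 CPM, 2.29-fold (log2 fold change 1.198, standard error 0.12, adjusted p = 1.33e-09). Tlr3, the sensor of double-stranded RNA, had at most 2 counts in each unstimulated library and 24.2, 18.2 and 22.9 CPM with IFNα, at least 7.61-fold higher. Of the 17 genes of receptors and adaptors tested, 5 were up-regulated, the others being Ly96 and the adaptor Ticam1, and none was down-regulated. Ticam1 lost the 2-fold call without IFNα replicate 3 (log2 fold change 0.98) or unstimulated replicate 1 (0.98). Myd88, the adaptor shared by TLR7 and TLR9, rose by 0.84 on the log2 scale (adjusted p = 0.00147).

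The genes that were lower with IFNα were led by immediate-early genes, which encode short-lived transcription factors and signaling inhibitors and are transcribed within minutes of a stimulus. Of 37 tested members 31 were down-regulated and 34 fell. Fos, a subunit of the AP-1 factor, had 1326, 1065 and 1415 CPM in unstimulated cells and 5.04, 4.86 and 5.34 CPM with IFNα, a 247-fold difference with no overlap. Junb went from 1905, 1356 and 1716 to 103, 119 and 96.2 CPM and Dusp1, a phosphatase of MAP kinases, from 286, 252 and 258 to 1.01, 9.73 and 6.11 CPM (log2 fold changes -3.96 and -5.38, the latter -6.06 without IFNα replicate 2). Ppp1r15a, which restores translation after stress, fell from 549, 340.1 and 526 to 34.3, 33.4 and 31.3 CPM (log2 fold change -3.84, standard error 0.17, adjusted p = 4.68e-19). Unstimulated replicate 1 was the highest for several of these genes: Rgs1, a regulator of G protein signaling, had 165, 39.6 and 41.5 CPM in the unstimulated samples and 3 counts or fewer in each IFNα library, at least 34.4-fold lower (17.0-fold without that replicate). Nr4a1, a nuclear receptor induced by antigen, fell from 782, 236 and 246 to 24.2, 17.6 and 13.0 CPM (log2 fold change -4.57, and -3.75 without it). The 2 members that rose were Btg2 (0.45) and Gadd45b (0.55), and Egr2 did not pass the test.

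Most immediate-early genes were also low in the groups that received CpG, but some were not. The largest exceptions were Nfkbiz, Gadd45b and Myc, whose levels under CpG alone exceeded those of unstimulated cells by 3.26, 2.12 and 1.66 on the log2 scale. Of these, Nfkbiz and Myc were down-regulated by IFNα alone. Fos had 6.23 ± 2.59 (SD, n = 3) CPM with CpG and 4.56 ± 2.19 (SD, n = 3) CPM with CpG plus IFNα, and Dusp1 2.05 ± 1.26 (SD, n = 3) and 1.501 ± 0.935 (SD, n = 3) CPM. Against the same unstimulated samples, the median log2 fold change of the list was -2.23 with IFNα, -3.42 with CpG and -3.27 with CpG plus IFNα. These comparisons share their 3 control samples. In cells that also received CpG, where both groups were stimulated, IFNα gave a median log2 fold change of 0.059 for the same 37 genes, with 2 up- and 2 down-regulated. The difference between the effects of IFNα with and without CpG was above 0 for 29 of the 37 genes (interaction, adjusted p under 0.1), against 5.84% of all genes, and for Fos it was 7.41 (standard error 0.58, adjusted p = 4.78e-11). The effect without CpG enters this difference, and the list was chosen with earlier results known, so that its share is no independent result. With CpG alone Dusp1 had at most 7 and Klf4 at most 5 counts in any library, so a further fall could hardly be measured. Of the 10 heat shock genes tested, Hspa1b alone was a DEG, from 9.10, 11.8 and 9.71 to 1.01, 1.22 and 2.29 CPM, and Hsp90ab1 and Hspe1 rose, by 0.62 and 0.63 on the log2 scale.

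**Figure D4:**
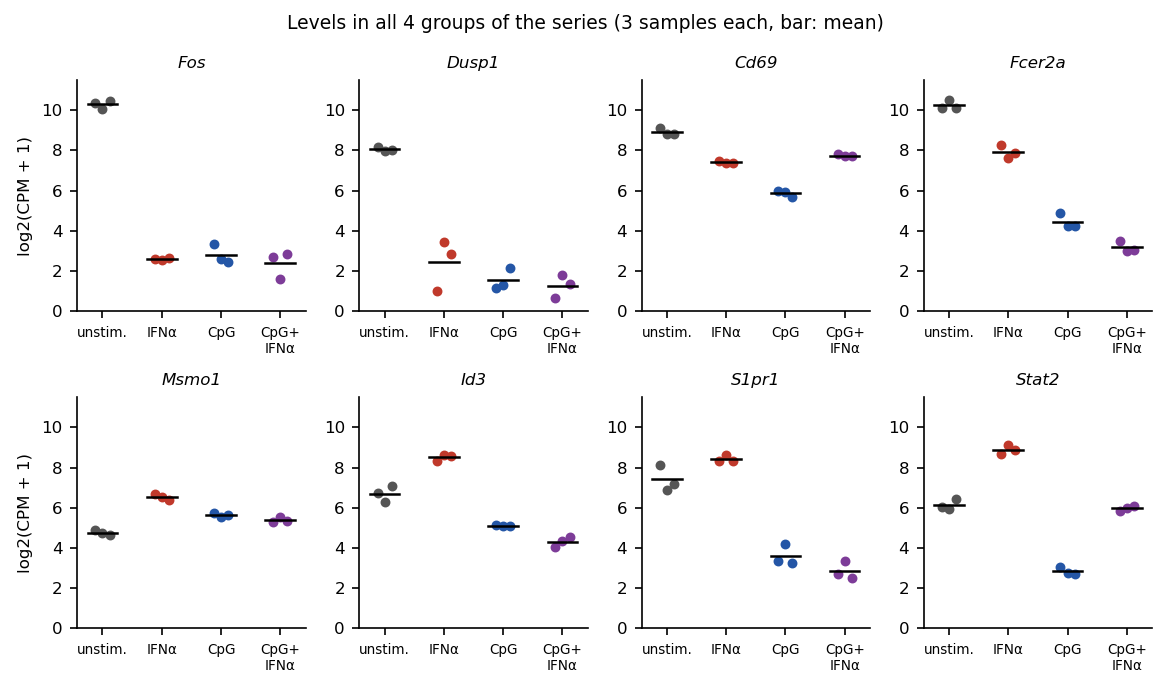
Level of 8 genes as log2(CPM + 1) in the 3 samples of each of the 4 groups, with a bar at the mean of the log values. Fos and Dusp1 were high in unstimulated cells alone, Cd69 and Fcer2a were lower in each stimulated group than in unstimulated cells, Msmo1, Id3 and S1pr1 had their highest mean with IFNα alone, and Stat2 was higher with IFNα than without it both in the absence and in the presence of CpG.

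The receptors that define FO B cells were lower with IFNα. Fcer2a, which encodes CD23, fell from 1118, 1454 and 1109 to 303, 196 and 233 CPM (log2 fold change -2.34, standard error 0.14, adjusted p = 2.67e-15), and Cr2, which encodes CD21, fell from 418, 353 and 467 to 98.9, 57.2 and 88.5 CPM (log2 fold change -2.38, standard error 0.17, adjusted p = 4.85e-13). Both are the surface markers by which the cells had been sorted before stimulation. Cd79a, which encodes a signaling chain of the B cell receptor, had 651, 769 and 664 CPM in unstimulated cells and 774, 736 and 836 CPM with IFNα (log2 fold change 0.17, adjusted p = 0.313). Of the 29 genes of B cell receptor signaling, 1 was up-regulated (Pik3ap1, log2 fold change 1.08) and Fcer2a and Cr2 were the only down-regulated members, against 4.56% up- and 4.07% down-regulated over all genes. Of the 3 marginal zone genes tested, Dtx1 and Cd1d1 also fell, each by 1.01 on the log2 scale, and Cd9 did not pass the test. Dtx1 was under the 2-fold limit in 3 of the fits with 1 library left out (without IFNα replicate 1, unstimulated replicate 1 or unstimulated replicate 2), and Cd1d1 was under it without IFNα replicate 1 (log2 fold change -0.72) and did not pass the test without unstimulated replicate 3 (adjusted p = 0.102). In bulk samples, fewer cells of a type and less RNA per cell cannot be told apart.

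Among 24 transcription factors of B cell identity 13 fell and 4 rose, mostly by less than 2-fold. Over all genes 11.9% fell and 12.4% rose. The DEGs were Id3, an inhibitor of E proteins, which rose from 105, 75.9 and 132 to 319.9, 391.6 and 379 CPM (log2 fold change 1.79, standard error 0.14, adjusted p = 2.32e-12), and Id2 and Klf2, which fell. Id2 had 11.8, 35.3 and 11.47 CPM without and 4.04, 4.26 and 5.34 CPM with IFNα, and Klf2, which controls the exit of lymphocytes from tissue, fell from 2339.6, 1377 and 1534 to 646, 553 and 730.3 CPM (log2 fold changes -2.03 and -1.45). Unstimulated replicate 2 was the highest for Id2, whose log2 fold change without it was -1.33 (adjusted p = 0.0826). Ebf1, a founding factor of the B lineage, fell by 0.98, Bcl11a by 0.74 and Foxo1 by 0.70, whereas Tcf4 rose by 0.65 on the log2 scale.

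Genes of homing and retention moved in opposite directions. CD69 holds lymphocytes in tissue by removing the receptor S1PR1 from the surface, and Cd69 fell from 548, 442 and 456 to 176, 165 and 162 CPM (log2 fold change -1.53, standard error 0.12, adjusted p = 1.21e-12). S1pr1 itself had 283, 118 and 145 CPM without and 323, 387 and 325 CPM with IFNα (log2 fold change 0.92, standard error 0.18, adjusted p = 0.000236), with unstimulated replicate 1 far above the other 2, and S1pr4 rose from 106, 130.5 and 143 to 225, 228 and 306 CPM (log2 fold change 0.9998). Without unstimulated replicate 1 the log2 fold change of S1pr1 was 1.40. Of the 18 homing genes tested 4 were down-regulated (Cd69, Klf2, Ccr7 and Ccr6), and 7 were without IFNα replicate 3. Ccr7 fell from 1081, 649 and 769 to 381, 372 and 358 CPM and was under the 2-fold limit without unstimulated replicate 1 (log2 fold change -0.93 in place of -1.17), and Ccr6 fell from 82.8, 105 and 83.8 to 30.3, 29.8 and 25.9 CPM (log2 fold change -1.65).

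The surface genes of B cell activation did not rise as a group. Of 22 tested, 1 was up-regulated and 3 were down-regulated, against 4.56% and 4.07% of all genes, with a median log2 fold change of -0.12. Slamf7 rose from 41.9, 35.3 and 37.1 to 111, 97.9 and 79.4 CPM (log2 fold change 1.32). Cd86, a costimulatory ligand, had 87.4, 58.8 and 62.7 against 110.0, 96.7 and 83.9 CPM and rose although the groups overlapped (log2 fold change 0.46, adjusted p = 0.0474), Cd40 fell by 0.65 on the log2 scale, and Cd83 was down-regulated, from 457, 224 and 283 to 75.7, 69.3 and 74.8 CPM. Cd47, the signal that protects cells from phagocytes, rose from 547, 518 and 504 to 1062, 971 and 958 CPM, just under 2-fold (log2 fold change 0.93, adjusted p = 1.16e-08).

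Of 14 genes of secreted factors tested, Cxcl10, Csf1 and Tnfsf10 were up-regulated. Cxcl10, a chemokine that attracts activated T cells, had 2.73, 1.07 and 7.06 CPM in unstimulated cells and 55.5, 74.2 and 48.8 CPM with IFNα (log2 fold change 3.97, and 4.86 without unstimulated replicate 3, standard error 0.32, adjusted p = 7.7e-12), and Csf1, the growth factor of macrophages, went from 5.46, 4.28 and 7.06 to 30.3, 31.6 and 29.8 CPM. Lta, which encodes lymphotoxin α, fell from 40.9, 37.4 and 40.6 to 3.03, 5.47 and 4.58 CPM (log2 fold change -3.11, standard error 0.29, adjusted p = 2.31e-10), and its partner Ltb by 0.59 on the log2 scale. Ccl3 and Ebi3 were also down-regulated, and Ccl3 was not without IFNα replicate 2 or unstimulated replicate 1 (log2 fold changes of -1.02 and -0.57, adjusted p = 0.158 and 0.516), nor Ebi3 without any 1 of 4 libraries (IFNα replicates 2 and 3, unstimulated replicates 2 and 3, adjusted p = 0.124 to 0.171).

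Genes of survival, death and growth showed no common direction. Of 31 genes of death and survival 4 were up- and 2 down-regulated, against 4.56% and 4.07% of all genes, and the median log2 fold change was 0.097. Without unstimulated replicate 3, 1 was down-regulated, since Bcl2a1b was then under the 2-fold limit (log2 fold change -0.98). Mlkl, the executor of necroptosis, had at most 1 count in each unstimulated library and 5.04, 10.9 and 6.87 CPM with IFNα, at least 2.66-fold higher, and Casp4 rose by 1.07 on the log2 scale (0.97 without unstimulated replicate 2). Bcl2, the main survival factor of resting B cells, fell from 161, 168 and 184 to 80.7, 92.4 and 96.9 CPM (log2 fold change -0.92, standard error 0.13, adjusted p = 8.72e-07). Of 20 tested genes of a list of p53 targets and cell cycle brakes, 3 were up- and 3 down-regulated, against 4.56% and 4.07% of all genes, and 10 did not pass the test. Of the up-regulated ones, Aen did not pass without IFNα replicate 1 or unstimulated replicate 1 (adjusted p = 0.126 and 0.103). Cdkn1a, the p21 inhibitor of cell cycle kinases, rose from 10.0, 2.14 and 13.2 to 22.2, 28.6 and 23.7 CPM (log2 fold change 1.51, standard error 0.38, adjusted p = 0.00363) and Bbc3 from 19.1, 3.21 and 7.94 to 23.2, 30.4 and 32.8 CPM, whereas the antiproliferative gene Btg1 fell from 1431, 1328 and 1161 to 519, 579 and 515 CPM (log2 fold change -1.28). None of 26 proliferation genes was a DEG, and 1 rose and 3 fell, against 12.4% and 11.9% of all genes. Of 30 genes of glycolysis and amino acid metabolism 4 were up-regulated, among them Mthfd2, a mitochondrial enzyme of folate metabolism (28.2, 18.2 and 23.8 to 62.6, 68.1 and 43.5 CPM), and Slc7a5, a transporter of large amino acids (log2 fold change 1.22, and 0.999 without unstimulated replicate 2, under the limit). The number was 2 without unstimulated replicate 2. Chac1, one of the 4, did not pass the test in 4 of the 6 fits that left out 1 sample, namely those without IFNα replicate 1 or without any one of the unstimulated replicates (adjusted p from 0.117 to 0.139). The glucose transporter gene Slc2a1 fell by 0.996, at the 2-fold limit.

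Genes of cholesterol metabolism rose. Of 21 tested, 15 rose, 10 of them as up-regulated DEGs, and the median log2 fold change was 0.94. The enzymes Cyp51 and Msmo1, which act on lanosterol and its products, rose from 15.5, 25.7 and 17.6 to 87.8, 60.8 and 69.4 CPM and from 28.2, 25.7 and 23.8 to 101, 93.0 and 83.9 CPM (log2 fold changes 1.88 and 1.83, standard errors 0.20 and 0.17, adjusted p = 6.09e-09 and 2.23e-10). The exporters went down: Abcg1 fell from 183, 147 and 146 to 43.4, 94.9 and 61.1 CPM and Abca1 from 75.5, 52.4 and 61.8 to 30.3, 43.2 and 28.2 CPM (log2 fold changes -1.204 and -0.88). Abcg1 was not a DEG without IFNα replicate 1, whereas Abca1 became one without IFNα replicate 2 (log2 fold change -1.12). Leaving out 1 library at a time gave between 7 (without IFNα replicate 2 or unstimulated replicate 3) and 13 (without IFNα replicate 3 or unstimulated replicate 2) up-regulated members of the list.

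The comparison of CpG plus IFNα with CpG uses 6 other samples and shows which of these effects were also seen when CpG was present. Of the 430 genes up-regulated by IFNα alone, 189 (44%) were also up-regulated there, which is 68% of the 278 genes up-regulated in that comparison and compares with 2.95% of all genes tested. Of the 384 down-regulated genes 28 (7.29%) were down-regulated there, 14.7% of the 190 in that comparison, against 2.01% of all genes. In the antiviral lists, IFNα in the presence of CpG up-regulated 6 of 6 IFIT and IFITM genes, 7 of 8 of the OAS pathway, 6 of 7 of the ISG15 pathway, 15 of 19 GTPase genes, 32 of 38 restriction factors and 20 of 25 Schlafen, PARP and TRIM genes, with medians from 2.11 in the last to 4.84 in the first. Of the 102 antiviral genes together, the size of the effect differed for 36, with the interaction above 0 for 22 and below 0 for 14 (edgeR, adjusted p below 0.1), against 5.84% and 7.58% of all genes. None of the 21 cholesterol genes was up-regulated by IFNα in the presence of CpG (median log2 fold change -0.33), and the interaction was below 0 for 16 of them. The effect without CpG enters the interactions of both this list and the antiviral genes, so that these shares are no independent results. For Msmo1 the effect of IFNα was -0.26 with CpG, and the difference of -2.09 had a standard error of 0.23 (adjusted p = 6.02e-08). Id3 rose with IFNα alone and fell with IFNα when CpG was present, by 0.81 on the log2 scale (difference -2.60, standard error 0.25, adjusted p = 3.97e-09). Cd69 fell with IFNα alone and rose by 1.88 in the presence of CpG (difference 3.41, adjusted p = 9.5e-16), and Cd86, which rose by 0.46 alone, rose by 2.70 (difference 2.24, adjusted p = 1.26e-05). DESeq2 called the interaction in 714 genes, where edgeR called 1266.

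**Figure D5:**
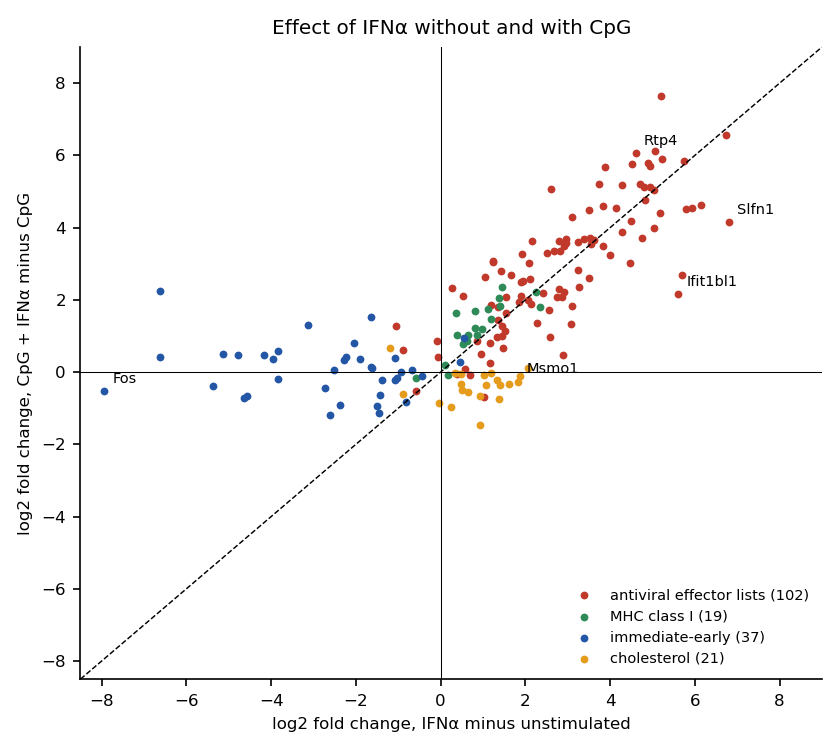
Log2 fold change by IFNα in the absence of CpG (horizontal axis) and in its presence (vertical axis) for the members of 4 sets of lists, with equal effects on the dashed line. Of the 102 antiviral genes 36 have a called interaction, 22 above and 14 below the line; 35 of the 37 immediate-early genes lie to the left (Btg2 and Gadd45b do not), where the vertical position of Rgs1, with 0 counts in the CpG libraries, is set by the fit; and the 21 cholesterol genes lie mostly to the right with vertical values under 0.

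Many up-regulated genes were neighbors in the genome (GRCm38). Of the 430, 160 (37.2%) had their start within 100000 bases of the start of another up-regulated gene, and 55 (14.3%) of the 384 down-regulated genes lay as close to another down-regulated gene. Over all 9431 genes tested, 9.26% had the start of an up-regulated gene within that distance and 8.27% that of a down-regulated gene. The longest run held 9 genes on chromosome 11 between 48871683 and 49076587 and included Irgm1, Gm5431, Tgtp1, Tgtp2 and Ifi47, and all 9 genes tested there were up-regulated. The runs begin and end at up-regulated genes, and some members, such as Gm5431 and Tgtp1, passed the filter only through samples with IFNα. Such complete shares are thus partly built in. Runs of 7 were found among the PYHIN genes on chromosome 1 and among MS4A genes on chromosome 19 (these runs were chosen by their length), runs of 6 among Schlafen genes on chromosome 11, where 6 of 7 tested genes were up-regulated, and around Mpeg1 on chromosome 19 (6 of 6), and runs of 5 in the IFIT, OAS, PHF11 and TRIM30 clusters, with 5 of 5 tested genes up-regulated in each. ISRE matches were more frequent in promoters of the up-regulated genes. RefSeq windows were matched by symbol for 339 of the 430 genes, and 64 of these (18.9%) held the motif, against 3 of 251 (1.2%) for down-regulated genes, 226 of 6644 (3.4%) for genes not called and 3.99% of the 27025 genes in the table of promoters. Counted by windows, since genes have unequal numbers of them, the shares were 15.8%, 0.952%, 2.79% and 3.44%. For the second element bound by STAT proteins, the GAS motif (TTCNNNGAA), the shares of genes were 11.8% of up-regulated, 9.16% of down-regulated and 8.1% of other genes, against 9.55% in the table. A match is a description of sequence and not evidence of binding.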

How the data were processed

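RNA of FO B cells was measured by BRB sequencing in 12 samples, of which the 3 IFNα and 3 unstimulated samples are compared here. The authors trimmed reads (Trim Galore 0.6.7), aligned them to GRCm38 (HISAT2 2.2.1), assigned them to genes (featureCounts 2.0.1) and then counted UMIs without duplicates (UMI-tools 1.1.2), with versions from the submitters' processing notes, and deposited raw counts. The annotation release is not given in the sources used here. The methods state that the gene model of Tlr9 was extended at its end, which bears on its level. Whether the extension also bears on the comparison between groups was not tested.

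Genes were filtered with filterByExpr (9431 of 22561 kept), scaled by TMM and tested by edgeR's quasi-likelihood test (edgeR 4.0.16, R 4.3.3) with 1 mean for each of the 4 groups over all 12 samples (8 residual degrees of freedom). Genes were called DEGs at an adjusted p (Benjamini-Hochberg) below 0.1 with an absolute log2 fold change above 1. The interaction was the effect of IFNα with CpG minus that without CpG. All p-values were adjusted over all genes tested. Levels are CPM computed from the deposited counts with TMM-scaled library sizes, with 3 counts as the limit of detection. Totals were 922450 to 1689570 counts per sample. Genes were named by rule: the 10 DEGs in each direction with the smallest p and no overlap of replicates, the 5 in each direction with the largest change at a mean of at least 20 CPM, members of gene lists, and the receptor subunits, kinases, Tlr9 and Cdkn1a. The comparison, lists and tests were chosen with earlier results of these data known. The labels do not say that replicates came from separate mice, so p-values measure the spread between these samples. The test was checked on simulated data. Alternatives covered scaling, filters, DESeq2 1.42.0, thresholds, depth, the samples fitted, left-out samples and a replicate block. Some genes are not reported here.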

Additional observations from a re-analysis of the deposited data

Results flagged for a closer look

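For 14 of the 23 genes with the smallest p-values or the largest changes, the effect of IFNα differed between cells without and with CpG (interaction, edgeR's quasi-likelihood test, adjusted over all genes), against 5.84% of all genes with an interaction above 0 and 7.58% below 0. The 23 were chosen on the effect without CpG, which also enters the interaction, so that their share is no independent result. The other 9, among them Ifit3 (difference -0.16, adjusted p = 0.98), Irf7, Rsad2 and Oasl1, did not pass. Each value here is the log2 effect with CpG minus that without it. The immediate-early and related genes fell with IFNα alone, and their differences were 7.41 for Fos, 7.04 for Fosb, 5.26 for Klf4, 4.99 for Dusp1, 4.63 for Jun, 4.44 for Ppp1r15a, 4.34 for Junb, 3.92 for Rhob, 3.65 for Sik1 and 1.42 for Rgs2, with adjusted p from 9.5e-16 for Junb to 0.04 for Rgs2. Rgs2 still fell by 1.19 on the log2 scale when CpG was present, and the effect for Junb was 0.38 (adjusted p = 0.135). Among interferon-stimulated genes Rtp4 rose more with CpG (4.601 alone and 6.07 with CpG, difference 1.47, adjusted p = 0.0155). Slfn5 rose less with CpG (difference -1.04, adjusted p = 0.0698). The differences for Slfn1 (-2.64, adjusted p = 0.0979), Gm12250 (-2.11, adjusted p = 0.0911) and Fosb depend on the prior count of the fit, since Slfn1 and Fosb with CpG alone and Gm12250 in unstimulated cells had 3 counts or fewer in each library. The unstimulated samples enter the effect without CpG only, and whether they were cultured for 12 h is not stated, so that the part of culture in these differences cannot be told apart. Groups of 3 were not tested for single outlying samples.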

How the results depend on the processing

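The counts of DEGs (430 up, 384 down) and of interactions (1266) stayed within 1.5 times of these values under other scaling, filters and fits, with 2 exceptions. DESeq2 called 714 interactions, 708 of them shared with edgeR (the cause was not tested), and a log2 limit of 2 left 161 up- and 90 down-regulated genes. Left-out samples gave 421 to 453 up-regulated and 373 to 510 down-regulated genes and 945 to 1481 interactions. Without IFNα replicate 2 up-regulated genes made up 45.2% of the DEGs, in place of 52.8%. Scaling by library size alone gave 45.3% and moved the median of all genes to -0.083 on the log2 scale. Leaving out ribosomal RNA and mitochondrially encoded genes, an alternative chosen after seeing the data, gave 409 and 420 DEGs. The named genes that changed sign were ones that had not passed the test with all samples: with scaling by library size alone Ifnar2 had -0.035 and Ms4a1 -0.011, and with left-out samples Ifnar1 ran from -0.52 (adjusted p = 0.0649, without IFNα replicate 2) to 0.13 and Ifnar2 from -0.030 to 0.093. Replicate numbers were not taken to pair the samples, since the deviations of same-numbered IFNα and unstimulated samples correlated at -0.0072, -0.071 and 0.0030 over 6399 genes. The globin genes, given below, had the same order of replicate numbers in all 4 groups. Whether same-numbered samples shared a preparation is not stated and was not tested. A fit with the replicate number as a block gave 429 up- and 391 down-regulated DEGs and 1406 interactions, and changed the call of none of the 209 named genes.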

Other observations

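Genes of the MS4A family, which encode membrane proteins with several spans and lie beside the B cell gene Ms4a1 (CD20), were chosen after their values were seen. Ms4a4c had 241, 319 and 334 CPM in unstimulated cells and 2104, 1923 and 2399 CPM with IFNα, and Ms4a4b had 4.55, 2.14 and 3.53 and 118, 82.7 and 108 CPM. Ms4a6b and Ms4a6c rose by 2.14 and 1.90 on the log2 scale. Ms4a1 itself did not pass the test (log2 fold change 0.077, adjusted p = 0.68, edgeR). With CpG, IFNα changed Ms4a4b by 2.50, Ms4a4c by 0.91, Ms4a6b by -0.44 and Ms4a6c by -0.48.

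Genes annotated as TEC (gene models that await experimental evidence) or as sense intronic were frequent among the down-regulated genes: 47 of 157 tested TEC genes (29.9%) and 6 of 19 sense intronic genes (31.6%) fell as DEGs, against 3.46% of protein-coding genes. The 53 down-regulated genes of these classes had median levels of 18.5 CPM without and 5.47 CPM with IFNα. Over all tested genes of each class the median log2 fold change was -0.51 for TEC and -0.65 for sense intronic genes. Such genes can lie within introns of other genes.

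The 4 globin genes summed to 345, 156 and 57.4 CPM in unstimulated replicates 1 to 3, to 335, 85.1 and 15.3 CPM with IFNα, to 59.6, 18.5 and 4.99 CPM with CpG and to 72.0, 21.7 and 5.65 CPM with CpG plus IFNα. The order of the replicate numbers was the same in all 4 groups.

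Of the genes chosen after their values were seen, Dnajc7, a cochaperone gene, rose by 1.71 with IFNα alone and changed by 0.07 with CpG (difference -1.64, adjusted p = 3.97e-09, edgeR).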
